A study of Mus musculus with 12 samples.

Results

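Neural stem cell and neurogenesis transcripts were examined in astrocytes sorted from the adult mouse hippocampus. The genes were 9 rows of the deposited table, taken by symbol from 56791 gene names: Nes, Hopx and Prom1 for radial glia-like stem cells, Eomes and Neurod1 for intermediate progenitors, Dcx and Sox11 for neuroblasts, and Mki67 and Top2a for dividing cells. The study compared 2 genotypes of naive adult male mice, labelled Ctrl (Tnfrsf1bfl/fl) and cKO (GfapcreERT2:Tnfrsf1bfl/fl). Both groups carry floxed alleles of Tnfrsf1b (TNFR2, a receptor for TNF), and cKO alone carries the inducible recombinase creERT2 under the Gfap promoter. Cells of both were sorted by fluorescence for ACSA-2, an astrocyte surface antigen, and amplified with a low-input SMART-Seq kit. The age in weeks and the dosing that activates the recombinase were not given in the sources used here. Each A number in the titles had an S1 and an S2 library; these were averaged into 1 unit, giving 3 units of Ctrl (A1, A2, A8) and 3 of cKO (A4, A9, A10).

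In the adult dentate gyrus, radial glia-like stem cells of the subgranular zone divide rarely and give rise to dividing intermediate progenitors, which become neuroblasts and then granule neurons. The stem cells share much of their gene expression with astrocytes, including Gfap, Sox2, Sox9 and Slc1a3. The Gfap promoter is itself active in many of these stem cells, so a recombinase driven by it is not confined to astrocytes. A sort for an astrocyte antigen can therefore hold stem cells, while progenitors and neuroblasts would enter it as other cells. In bulk RNA, fewer cells of a type and less RNA per cell cannot be told apart.

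Values are FPKM, fragments per kilobase of gene length per 1000000 assigned. Depth recovered from the steps between low values was 17311872 to 22025823 reads in S1 libraries and 28096485 to 35323322 in S2 libraries, where a pair probably counts as 2 reads. A gene at or under 3 reads in a library was taken as not detected there, a floor that covers counting error only. A pair of features of the series bears on what follows. Ctrl unit A8 stood apart on the first principal component of 17540 genes (33.4% of the variance), with a score of 75.6 against -43.3 to 17.7 in the other 5 units. A8 also had the fewest genes above 0 FPKM, 21342 in S1 and 21572 in S2, against 23669 to 26668 in the libraries of the other units. Its depth lay within the ranges given above. The ablated gene did not check the labels: Tnfrsf1b was above the floor in 3 of 12 libraries, 1 of them Ctrl A1 and both others A4, labelled cKO (10 and 22 reads). Astrocyte markers were present at high levels in every unit, with 8 of 8 above the floor and a summed level of 3004 to 4115 FPKM; Gfap was 61.4 to 112 FPKM in Ctrl and 94.6 to 156 FPKM in cKO (limma adjusted p = 0.718).

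The 9 genes spanned a wide range of abundance in this sort. Hopx was the highest, with a mean of 52.6 FPKM over the 12 libraries, and exceeded 97.3% of the 17540 genes tested. Prom1 (5.63 FPKM), Nes (4.83 FPKM) and Sox11 (4.71 FPKM) followed in mid range. Mki67 (1.69 FPKM) and Top2a (1.05 FPKM) stood near the lower limit of 1 FPKM set for testing. Eomes (0.361 FPKM), Dcx (0.260 FPKM) and Neurod1 (0.259 FPKM) lay under that limit. In this order only Hopx was clear of its neighbour, its lowest unit lying above the highest unit of Prom1; the unit ranges of all other neighbours overlapped. Prom1 exceeded Nes in 3 of 6 units, Nes exceeded Sox11 in 3 of 6, and Dcx exceeded Neurod1 in 3 of 6, so these pairs had no fixed order. Compared within units, Sox11 exceeded Mki67 in 6 of 6. Mki67 exceeded Top2a, Top2a exceeded Eomes and Eomes exceeded Dcx in 5 of 6 each.

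**Figure D1:**
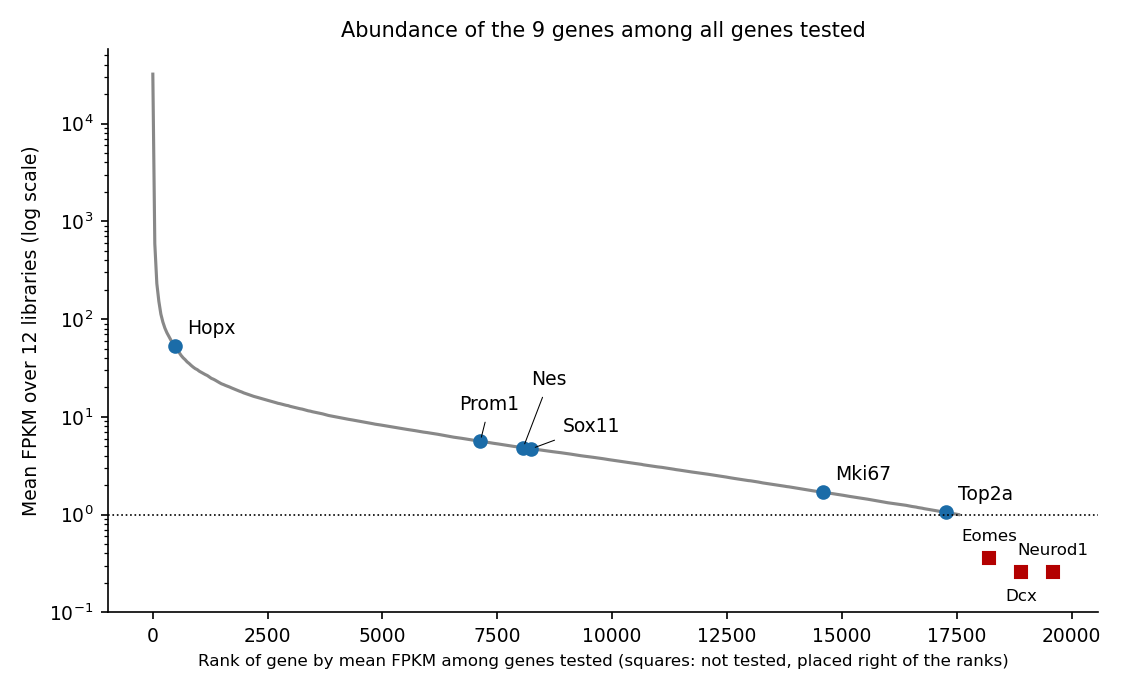
Mean FPKM over the 12 libraries (log scale) against rank for the 17540 genes tested (grey line), with the 6 tested genes as circles. Eomes, Dcx and Neurod1 (squares, to the right of the ranks) fall under the dotted line at 1 FPKM, and Hopx stands near the top.

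The comparison of cKO with Ctrl asks whether these transcripts differed with the genotype. Of the 9 genes, 6 passed the limit on low values and entered the limma fit over 17540 genes. None of the 6 had a limma adjusted p under 0.05, the fraction called over all genes being 0%. At an unadjusted p under 0.05 there was 1 of 6, Hopx (higher in cKO), where 7.69% of all genes tested were called, 2.98% higher and 4.71% lower. In 0 of the 9 genes were the 3 cKO units clear of the 3 Ctrl units, which was the case in 13.0% of the genes tested (5.76% with cKO above, 7.22% below). The mean was lower in cKO for 8 of the 9 genes and higher for Hopx alone, where 50.8% of the genes tested were lower. Of these 8, Eomes, Dcx and Neurod1 were under the limit on low values, and Top2a passed it through Ctrl alone. Nes, Prom1, Mki67, Eomes and Neurod1 changed direction when single A numbers were left out. With 3 units against 3, the exact permutation test used for single genes cannot give a p under 0.1.

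**Figure D2:**
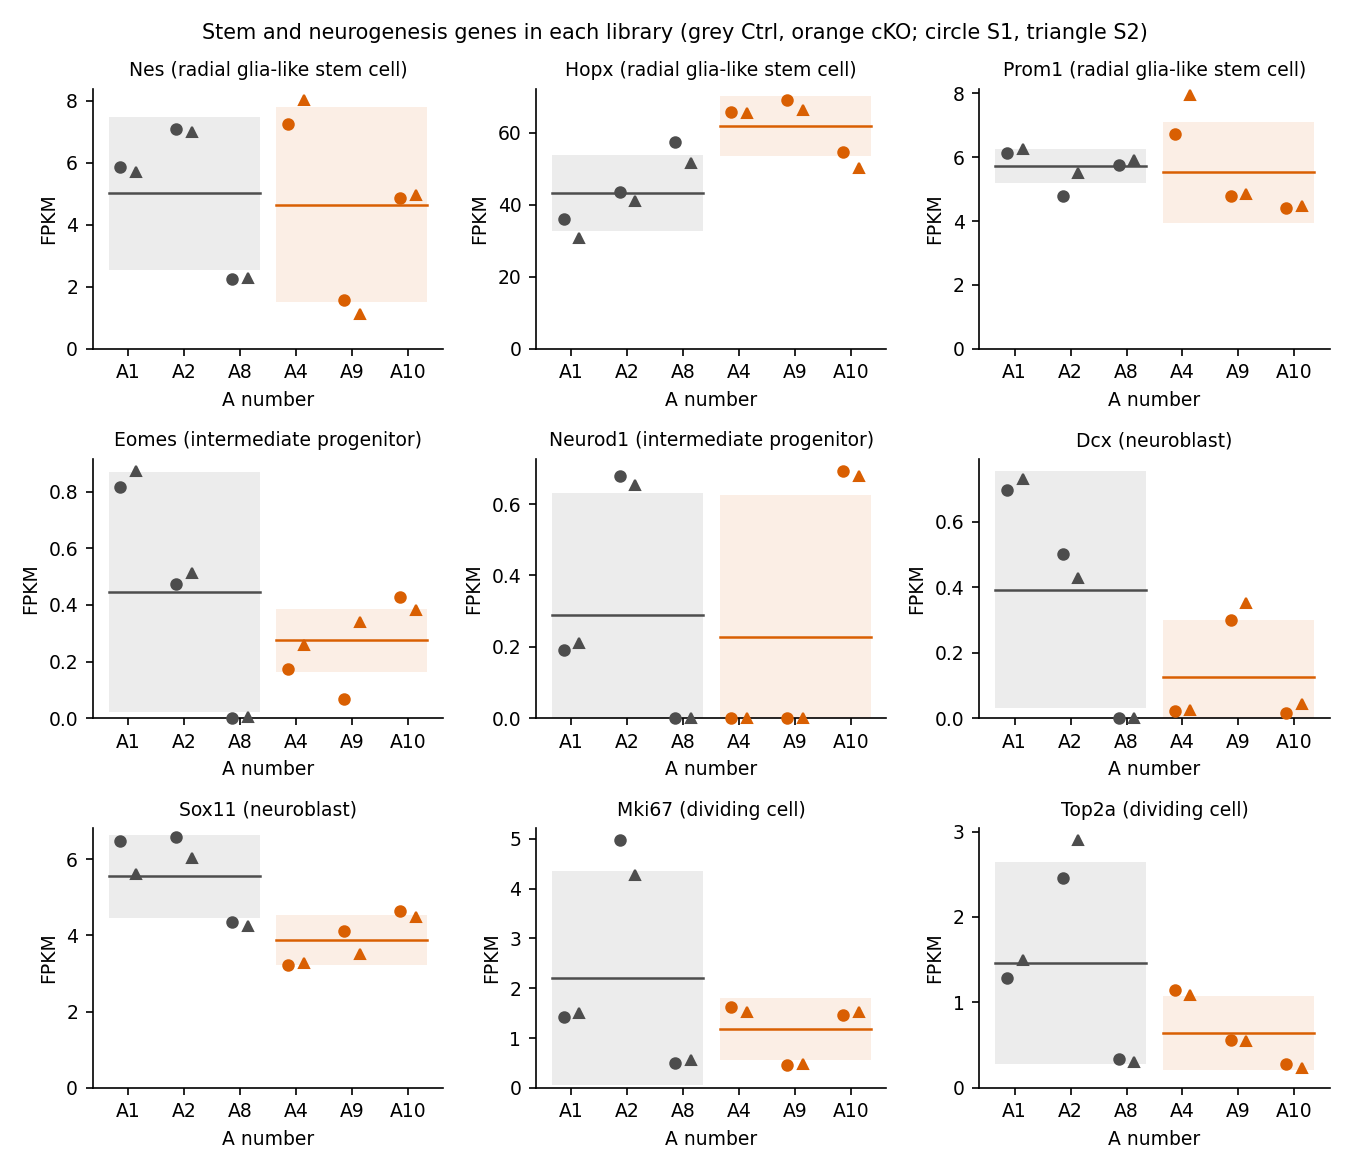
FPKM of each gene in each library by A number, with grey for Ctrl, orange for cKO, circles for S1 and triangles for S2; lines are group means of 3 units and shaded bands the SD. S1 and S2 lie close together, the 2 groups overlap in each panel, and A8 is at or near 0 for Eomes, Neurod1 and Dcx.

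Among the stem cell genes, Hopx was the most abundant and the one with the higher mean in cKO. Hopx (ENSMUSG00000059325, chromosome 5, start 77234835, end 77262968, minus strand) encodes a small homeodomain-only protein that marks quiescent stem cells of the dentate gyrus and is also made by astrocytes. Its level was 33.4 FPKM in A1, 42.2 in A2 and 54.4 in A8 of Ctrl, and 65.6 in A4, 67.6 in A9 and 52.4 in A10 of cKO. A4 and A9 stood above every Ctrl unit, and A10 fell under Ctrl A8, so the groups overlapped. The means were 43.3 ± 10.6 FPKM in Ctrl and 61.9 ± 8.29 FPKM in cKO (3 units each, ± SD). On the log2(FPKM + 1) scale cKO exceeded Ctrl by 0.52 (SE 0.20; limma adjusted p = 0.607; exact permutation p = 0.2, two-sided). Without A8 it was 0.70, without A4 0.48 and without A1 0.35, the lowest of the 6 such values (limma adjusted p = 0.186, 0.973 and 0.762). The summed astrocyte markers ran the same way, from 3004 to 3679 FPKM in Ctrl and from 3474 to 4115 FPKM in cKO; their part in the Hopx difference was not tested.

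Nes (ENSMUSG00000004891, chromosome 3, start 87878385, end 87887758, plus strand) encodes nestin, the intermediate filament of neural stem and progenitor cells, which vessel cells also make. Its level was 5.77 FPKM in A1, 7.03 in A2 and 2.26 in A8 of Ctrl, against 7.64 in A4, 1.36 in A9 and 4.92 in A10 of cKO. Each genotype held high and low units, and the highest unit was 5.60-fold above the lowest. The means were 5.02 ± 2.47 FPKM in Ctrl and 4.64 ± 3.15 FPKM in cKO (3 units each, ± SD). The log2 difference between them was -0.19, with an SE of 0.54 (limma adjusted p = 0.975). The direction turned without A9 (0.35) or without A2 (0.07), and was -0.58 without A8 and -0.59 without A4. Other cell types also varied between units, not all in step with Nes. The summed ependymal markers were 281, 243 and 72.2 FPKM in A1, A2 and A8, and 152, 58.7 and 186 FPKM in A4, A9 and A10, so A8 and A9 were low for both Nes and these markers. The summed endothelial markers were 57.8, 38.7 and 42.0 FPKM in A1, A2 and A4 and 4.82 to 6.71 FPKM in A8, A9 and A10. A10 was thus low for the endothelial markers but not for Nes. The summed mural markers were 110, 112 and 66.9 FPKM in A1, A2 and A8, and 92.8, 106 and 142 FPKM in A4, A9 and A10. A9, lowest for Nes, was not low for the mural markers. The part of these cells in the Nes level was not tested.

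Prom1 (ENSMUSG00000029086, chromosome 5, start 44150962, end 44259374, minus strand) encodes prominin-1, or CD133, a membrane protein of protrusions on stem cells and ependymal cells. It had the smallest ratio of highest to lowest unit among the 6 tested genes, at 6.20, 5.14 and 5.85 FPKM in A1, A2 and A8 of Ctrl and 7.34, 4.82 and 4.43 FPKM in A4, A9 and A10 of cKO. The highest unit was 1.66-fold above the lowest, and A4 alone stood above the Ctrl units. The log2 difference was -0.07, with an SE of 0.21 (limma adjusted p = 0.976). It was -0.26 without A4 and -0.05 without A8, and turned to 0.05 without A10.

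Progenitor transcripts were low and uneven among units. Eomes (ENSMUSG00000032446, chromosome 9, start 118307280, end 118315200, plus strand) encodes the T-box factor Tbr2, which marks intermediate progenitors. It was above the floor in 10 of 12 libraries, with 0 to 113 reads. Its level was 0.844 FPKM in A1, 0.493 in A2 and 0.00191 in A8 of Ctrl, and 0.217 in A4, 0.205 in A9 and 0.404 in A10 of cKO. A8 had 0 and 0.5 reads, and A1 and A2 exceeded each cKO unit. The libraries of A9 differed from each other more than those of any other unit, with 5 reads in S1 and 40 in S2. Over units the log2 difference was -0.14 (exact permutation p = 0.6, two-sided, n = 3 each). It was -0.39 without A8, -0.11 without A4 and 0.05 without A1.

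Neurod1 (ENSMUSG00000034701, chromosome 2, start 79282865, end 79287095, minus strand) encodes a basic helix-loop-helix factor of late progenitors and newborn granule neurons. It was detected in both libraries of A1 (10 and 18 reads), A2 (32 and 50) and A10 (34 and 54), and had 0 reads in the other 6 libraries. The unit levels were 0.202, 0.665 and 0 FPKM in A1, A2 and A8 of Ctrl and 0, 0 and 0.686 FPKM in A4, A9 and A10 of cKO. Both genotypes thus held units with the transcript and units without it at this depth. The floor of 3 reads corresponded to 0.0311 to 0.0635 FPKM. The log2 difference was -0.08 (exact permutation p = 1, two-sided, n = 3 each), and it was 0.04 without A4 or without A9, 0.12 without A2, -0.25 without A8 and -0.33 without A10. The same 3 units had the highest summed choroid plexus markers, 68.5, 73.4 and 453 FPKM in A1, A2 and A10 against 1.89 to 9.31 FPKM in the other 3. They also had the highest summed dentate granule neuron, ependymal and mural markers. The granule neuron markers were 21.5, 16.7 and 19.3 FPKM in A1, A2 and A10 against 5.88 to 14.6 FPKM in the other 3. The part of any of these cell types in the Neurod1 level was not tested.

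The neuroblast genes were Dcx, detected in 10 of 12 libraries, and Sox11, detected in all 12. Dcx (ENSMUSG00000031285, chromosome X, start 142638838, end 142716307, minus strand) encodes doublecortin, the microtubule protein of migrating neuroblasts. Its level was 0.715 FPKM in A1, 0.465 in A2 and 0 in A8 of Ctrl, and 0.0242 in A4, 0.326 in A9 and 0.0305 in A10 of cKO. A1 (168 and 288 reads) and A2 (110 and 152 reads) exceeded every cKO unit, whereas A8 had 0 reads in both libraries. The log2 difference was -0.28 (exact permutation p = 0.4, two-sided, n = 3 each); it was -0.11 without A1, -0.50 without A8 and -0.22 without A4. In the fit with no filter on low values the limma adjusted p was 0.820 for Dcx, 0.900 for Eomes and 0.958 for Neurod1. The summed neuronal markers were 5.63 to 7.89 FPKM in Ctrl and 3.70 to 5.06 FPKM in cKO, with Snap25 and Nefl the highest; 0 of the 8 were at 0 in all libraries. Of the 6 dentate granule neuron markers, C1ql2 and Pla2g2f had 0 FPKM in all 12 libraries. The others, with Prox1 among them, were above the floor in at least 1 library. The list summed to 10.9 to 21.5 FPKM in Ctrl and 5.88 to 19.3 FPKM in cKO. Unit A9 had Dcx without Neurod1, and A10 had Neurod1 with little Dcx.

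Sox11 (ENSMUSG00000063632, chromosome 12, start 27384263, end 27392573, minus strand) encodes a SoxC transcription factor of immature neurons that the oligodendrocyte lineage also makes. It was 6.05 FPKM in A1, 6.31 in A2 and 4.30 in A8 of Ctrl, against 3.24 in A4, 3.82 in A9 and 4.57 in A10 of cKO. A1 and A2 stood above every cKO unit, and A8 stood between A9 and A10. The means were 5.55 ± 1.10 FPKM in Ctrl and 3.88 ± 0.666 FPKM in cKO (3 units each, ± SD). The log2 difference was -0.42, with an SE of 0.20 (limma adjusted p = 0.716; exact permutation p = 0.2, two-sided). It was -0.57 without A8 and -0.32 without A4 (limma adjusted p = 0.286 and 0.976). Unlike Dcx, Sox11 kept at least 590 reads in each library, also in A8, where Dcx had 0. The summed oligodendrocyte precursor markers were 127 to 168 FPKM in Ctrl and 77.8 to 106 FPKM in cKO, with 8 of 8 above the floor in A1, A2 and A4 and 5 in A8. Of the 5 precursor markers tested, 2 were lower at an unadjusted p under 0.05, where 4.71% of all genes tested were. In 2 of the 5 the cKO units lay below all Ctrl units, where 7.22% of all genes tested did. The part of these markers' cells in the Sox11 difference was not tested.

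**Figure D3:**
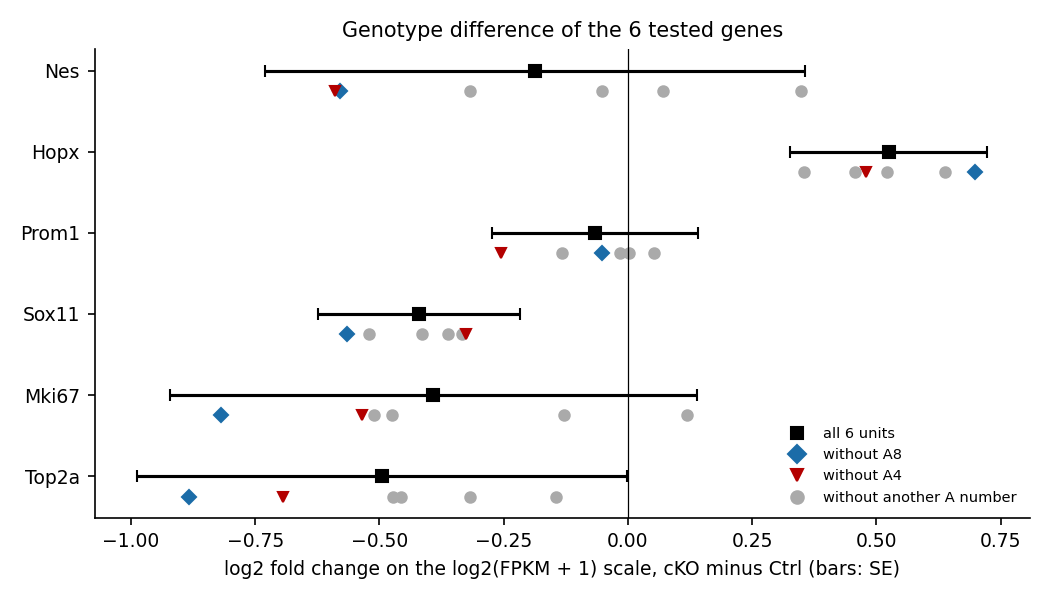
The log2 fold change of cKO against Ctrl on the log2(FPKM + 1) scale for the 6 tested genes, with squares and SE bars for all 6 units and points below them for fits that each left out 1 A number (blue diamond A8, red triangle A4). Nes, Prom1 and Mki67 have points on both sides of 0, and Hopx, Sox11 and Top2a do not.

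Mki67 and Top2a are transcribed in dividing cells of any type. Mki67 (ENSMUSG00000031004, chromosome 7, start 135291513, end 135318090, minus strand) encodes Ki-67, which coats mitotic chromosomes, and Top2a (ENSMUSG00000020914, chromosome 11, start 98883769, end 98915015, minus strand) encodes topoisomerase II alpha, which untangles replicated DNA. Their promoters are shown because late cell cycle genes are known to carry CCAAT boxes and a cell cycle homology region, the elements bound by NF-Y and by MuvB complexes. The 250 bases before each start, from RefSeq on GRCm38.p6, are printed 5′ to 3′ on the gene's strand, with CCAAT and TTTGAA in capitals on either strand (ATTGG and TTCAAA as their reverse); the 2 motifs share no letters.
Mki67, chr7:135716380-135716629, minus strand: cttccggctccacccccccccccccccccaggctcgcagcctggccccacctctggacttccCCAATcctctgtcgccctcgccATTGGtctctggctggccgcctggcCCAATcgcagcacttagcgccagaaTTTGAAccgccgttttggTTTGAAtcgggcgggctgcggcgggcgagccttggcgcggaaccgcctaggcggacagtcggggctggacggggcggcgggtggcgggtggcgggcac
Top2a, chr11:99024190-99024439, minus strand: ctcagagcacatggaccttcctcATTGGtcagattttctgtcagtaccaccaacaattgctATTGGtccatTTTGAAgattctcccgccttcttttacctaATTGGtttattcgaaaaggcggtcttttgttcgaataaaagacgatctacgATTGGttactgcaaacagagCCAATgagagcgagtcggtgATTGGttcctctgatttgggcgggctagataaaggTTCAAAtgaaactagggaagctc
The Mki67 window held 3 CCAAT and 2 TTTGAA matches, and the Top2a window held 6 and 2, the nearest TTTGAA match beginning 98 and 23 bases before the start. Over 32851 windows of the same length, 33.8% held CCAAT, 16.0% held TTTGAA and 5.55% held both. All 9 genes had an entry, and of the other 7 Sox11 alone held both motifs, in a 250-base window with 1 of each. A match is a description of the letters and not a bound site. The gene positions above are those of the deposited table and do not match GRCm38, so they cannot be set against the promoter positions.

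Mki67 was 1.46 FPKM in A1, 4.63 in A2 and 0.532 in A8 of Ctrl, and 1.57 in A4, 0.464 in A9 and 1.49 in A10 of cKO. A2 alone stood apart, A1, A4 and A10 were alike, and A8 and A9 were lowest. The means were 2.21 ± 2.15 FPKM in Ctrl and 1.18 ± 0.619 FPKM in cKO (3 units each, ± SD), and cKO less Ctrl was -0.39 on the log2 scale, with an SE of 0.53 (limma adjusted p = 0.931). Without A2 the direction turned to 0.12, while it was -0.82 without A8 and -0.53 without A4. Top2a was 1.39, 2.68 and 0.321 FPKM in A1, A2 and A8 and 1.12, 0.555 and 0.257 FPKM in A4, A9 and A10. A2 was again highest, but A10 was lowest here and among the higher units for Mki67. The log2 difference was -0.49, with an SE of 0.49 (limma adjusted p = 0.896). It was -0.15 without A2, -0.88 without A8 and -0.69 without A4. Top2a had means of 1.46 FPKM in Ctrl and 0.643 FPKM in cKO, so it passed the limit for testing through Ctrl alone. For both genes the spread between Ctrl units exceeded the difference between genotypes.

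The wider lists of the pathway were described by the same fit, whose median log2 fold change over all genes was -0.01. In all of them 0 genes had a limma adjusted p under 0.05. Of 20 stem cell genes that astrocytes share, 19 were tested and 14 were higher in cKO, with a median log2 fold change of 0.11. Over all genes tested, 8622 of 17540 were higher. The astrocyte glutamate transporter Slc1a3 was 429 ± 64.8 FPKM in Ctrl and 505 ± 73.3 FPKM in cKO, Sox2 was 137 ± 23.7 and 149 ± 17.5 FPKM, and Sox9 was 135 ± 10.6 and 145 ± 4.25 FPKM (SD, n = 3 each). These transcription factors of neural stem cells and astrocytes overlapped between the groups. Lpar1, a lysophosphatidic acid receptor of stem cells that myelinating oligodendrocytes also make, was the 1 gene at an unadjusted p under 0.05 (16.4 ± 6.97 and 7.08 ± 2.14 FPKM; limma adjusted p = 0.546); 1 of 19 stands beside 7.69% of all genes tested, 4.71% lower. Of 10 further progenitor genes only Btg2, an antiproliferative and immediate-early gene, reached the limit for testing (37.0 ± 20.5 and 21.9 ± 6.49 FPKM; limma adjusted p = 0.877). The next in level, Cdk6 (0.993 ± 0.540 and 1.004 ± 0.196 FPKM) and Elavl2 (0.554 ± 0.469 and 0.609 ± 0.337 FPKM), were under it.

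Of 18 immature neuron genes, 12 were tested, and 10 of the 12 were lower in cKO, where 50.8% of all genes tested were. The median log2 fold change was -0.66. Of these 10, Gap43, Elavl4 and Calb2 had cKO means of 0.686, 0.584 and 0.635 FPKM. They passed the limit for testing through Ctrl alone, which favours a lower value in cKO. Gap43 is also among the 5 genes that follow. At an unadjusted p under 0.05, 5 of the 12 were lower, where 4.71% of all genes tested were; in 4 of the 12 the cKO units lay below all Ctrl units, where 7.22% of all genes did. Elavl3, a neuronal RNA-binding protein, was 13.0, 13.5 and 8.83 FPKM in A1, A2 and A8 and 3.98, 3.62 and 5.74 FPKM in A4, A9 and A10, so the groups did not overlap. On the log2 scale cKO less Ctrl was -1.23, with an SE of 0.23 (limma adjusted p = 0.320). Stmn1, a microtubule destabiliser, was 33.0, 45.5 and 20.5 FPKM in Ctrl and 7.94, 13.1 and 19.1 FPKM in cKO (limma adjusted p = 0.456). Prox1, a factor of granule neurons that is also made in the oligodendrocyte lineage, was 12.3 ± 2.28 and 7.04 ± 2.45 FPKM (limma adjusted p = 0.539). Gap43, a growth cone protein, was 3.79 ± 2.75 and 0.686 ± 0.450 FPKM (limma adjusted p = 0.621), and its groups overlapped. The most abundant genes of the list, Tubb2b (117 ± 17.8 and 122 ± 5.68 FPKM) and Ncam1 (86.8 ± 4.84 and 82.3 ± 3.81 FPKM), are also made by astrocytes, and their groups overlapped.

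The count of 5 immature neuron genes fell to 2 without A1, without A2, without A4 or without A9, and was 6 without A8 and 4 without A10. The background share of lower genes was then 2.90% to 8.52%. Oligodendrocyte markers were lower in cKO as well, 8 of 8 at an unadjusted p under 0.05, where 4.71% of all genes tested were. In 7 of 8 the cKO units lay below all Ctrl units, where 7.22% of all genes tested did. Unlike the immature neuron count, that of the oligodendrocyte markers stayed at 8 when each A number was left out. Their summed level was 1840, 2005 and 934 FPKM in A1, A2 and A8 and 269, 383 and 639 FPKM in A4, A9 and A10. Their part in the immature neuron genes was not tested.

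**Figure D4:**
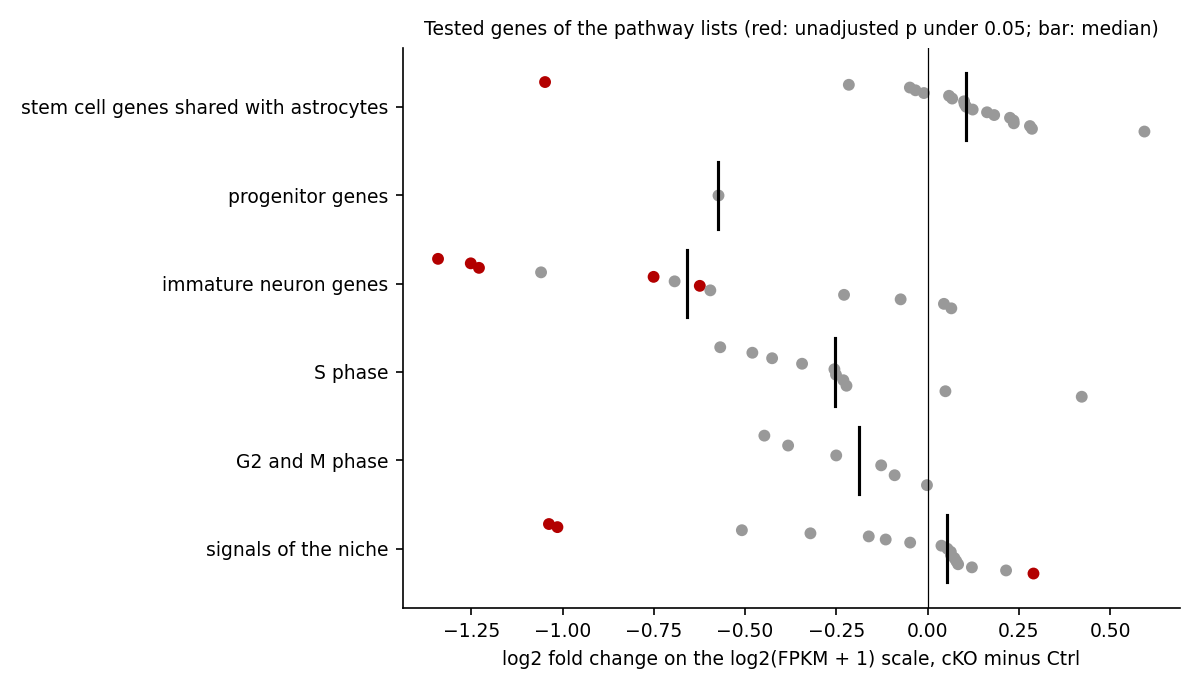
The log2 fold change of cKO against Ctrl on the log2(FPKM + 1) scale for each tested gene of the pathway lists, with red for an unadjusted p under 0.05 and a bar at each median. The immature neuron genes have the lowest median of the lists with more than 1 tested gene, at -0.66.

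The summed genes of G2 and M phase were also lowest in A8. The summed S phase genes were lowest in A9, at 26.8 FPKM against 28.6 FPKM in A8. Of 15 S phase genes 10 were tested, and 8 of the 10 were lower in cKO (median log2 fold change -0.25). Of 22 genes of G2 and M phase 6 were tested, and 6 of the 6 were lower (median -0.19). Over all genes tested, 50.8% were lower. In 2 of the 10 and 0 of the 6 the cKO units lay below all Ctrl units, where 7.22% of all genes tested did. Without A2 the G2 and M median was 0.02. In both lists 0 genes had an unadjusted p under 0.05. Among the S phase genes, Uhrf1 passed the limit for testing through Ctrl alone and Tk1 through cKO alone. Pcna, the sliding clamp of DNA replication, was 15.7, 16.5 and 6.95 FPKM in A1, A2 and A8 and 10.7, 7.27 and 7.87 FPKM in A4, A9 and A10. The replication helicase subunits Mcm4 (8.53 ± 1.66 and 7.30 ± 2.44 FPKM) and Mcm7 (3.12 ± 1.29 and 3.27 ± 1.38 FPKM) overlapped between the groups. Hmgb2, a chromatin protein, was 9.40 ± 5.07 FPKM in Ctrl and 6.65 ± 2.68 FPKM in cKO (3 units each, ± SD), and Kif11, a spindle motor, was 2.76 ± 1.73 and 1.56 ± 0.303 FPKM. Ctrl unit A8 again stood low. Of the 22 G2 and M genes, 6 were above the floor in both libraries of A8, against 16 to 21 in each other unit. A8 also had the fewest genes detected over the whole series, and the part of this in its low values was not tested. Cks2, a subunit of cyclin-dependent kinases, was 3.76 and 4.77 FPKM in A1 and A2, 0 in A8 and 1.04 to 2.08 FPKM in cKO. Without A8, 2 of the 10 S phase genes and 2 of the 6 G2 and M genes had an unadjusted p under 0.05 and were lower, beside 8.52% of all genes tested; the adjusted p was under 0.05 for 0 of them.

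**Figure D5:**
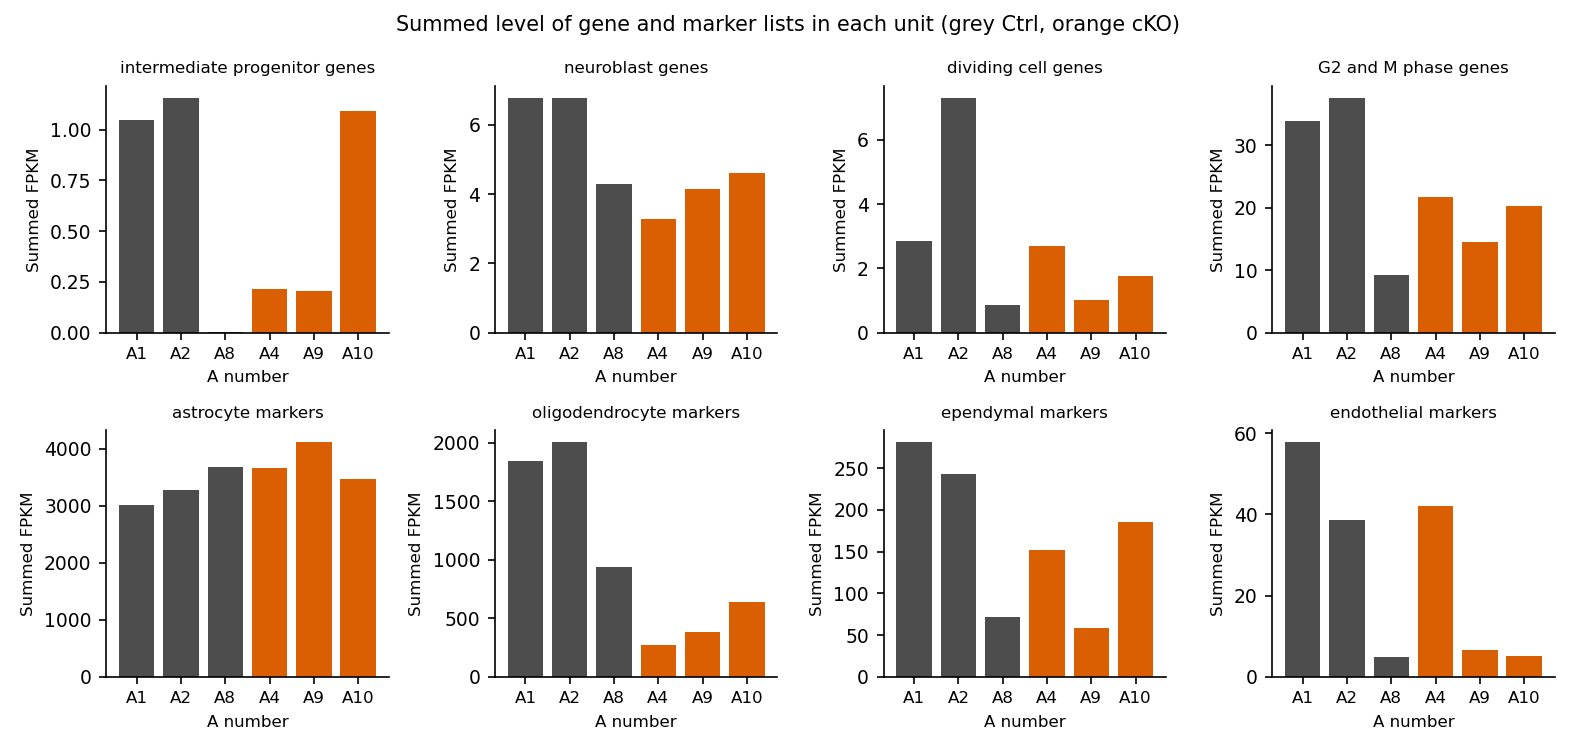
Summed FPKM of 4 groups of neurogenesis and cell cycle genes (upper row) and of 4 cell type marker lists (lower row) in each unit, grey for Ctrl and orange for cKO. A8 has the lowest bar of the intermediate progenitor, dividing cell, and G2 and M phase genes, and the 3 Ctrl units have the highest oligodendrocyte bars.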

How the data were processed

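RNA sequencing libraries of ACSA-2 sorted hippocampal astrocytes were used, 12 in all, with reads of 125 bases. The authors deposited 1 table of FPKM values; the sum of FPKM times length (kilobases) was 1000000 per library. Per the submitters' processing notes, FastQC, STAR, featureCounts and DESeq2 were used and the builds were mm10 and GRCm38. The gene coordinates are those of the deposited table. For 0 of the 9 genes did the span match GENCODE M21 on GRCm38, so their build is uncertain and differs from that of the promoter positions. Gene length is another deposited column.

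Rows sharing a symbol (147 symbols) were summed. Reads were recovered from FPKM steps; 82.8% to 86.3% of values above 0 were whole within 0.02 of a read. S1 and S2, which correlated at 0.980 to 0.984 over genes (libraries of different A numbers, 0.788 to 0.896), were averaged as log2(FPKM + 1) into 3 units per genotype. The labels do not say whether units are separate animals, so p-values measure the spread between these units. The 17540 genes whose mean reached 1 FPKM entered limma 3.58.1 (R 4.3.3, variance trend, two-sided, Benjamini-Hochberg, threshold 0.05), tested on simulated data. Fold changes on this scale understate the change of low genes. Single genes were compared with an exact permutation test over 20 arrangements (Python 3.11.15, scipy 1.17.1).

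The 9 genes and all lists were chosen with earlier results of these data known. From each pathway list the text names the 3 genes with the highest mean and up to 4 with an unadjusted p under 0.05; marker lists are given mainly as sums and counts, with few of their genes named, and 1 marker gene is not reported here. Genes like a tested gene are the 3 with the highest Pearson r over units. Alternatives are listed in the closing section.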

Additional observations from a re-analysis of the deposited data

How the results depend on the processing

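The count of 0 genes with a limma adjusted p under 0.05 was also found with a pseudocount of 0.1 or 0.01, with no filter or a filter at 0.1 FPKM, under both other scalings, eBayes without trend or robust, the log2 of the mean, S1 or S2 alone, voom on recovered reads and array weights. It ran from 0 to 1 when each A number was left out. With the 12 libraries and the A number as a random effect it was 112, and with the replicate block added 80; the number in that block stands for S1 against S2, so it does not pair units across genotypes. None of the 6 tested genes was among them, and the cause of these higher counts was not tested. When each A number was left out, Nes ran from -0.59 to 0.35, Prom1 from -0.26 to 0.053 (0.0019 without A9) and Mki67 from -0.82 to 0.12 on the log2 scale. Prom1 also changed sign under upper quartile scaling (0.00050) and with array weights (0.013). Hopx stayed above 0 and Sox11 and Top2a below 0 in these settings, Top2a having passed the limit for testing through Ctrl alone. Leaving out each A number for the pathway lists was chosen after seeing the data. Eomes, Dcx and Neurod1 had 0 to 288 reads per library, and their differences depended on the pseudocount: at 0.01 FPKM they were 0.54, -0.99 and -1.45.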

Other observations

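Signals of the neurogenic niche were measured for 24 genes, of which 17 were tested. Of the 17, 10 were higher in cKO, where 8622 of all 17540 genes tested were. The median log2 fold change was 0.05, and 0 had a limma adjusted p under 0.05. Vegfa, a vascular growth factor that also acts on stem cells, was the most abundant, at 89.0, 73.8 and 85.3 FPKM in A1, A2 and A8 and 112, 98.7 and 93.7 FPKM in A4, A9 and A10. The 3 cKO units lay above the 3 Ctrl units, where 5.76% of all genes tested did (log2 fold change 0.29, SE 0.12, limma adjusted p = 0.649). Smad7, an inhibitor of BMP and TGF-beta signalling, was 12.2, 10.2 and 7.73 FPKM in Ctrl and 4.20, 2.97 and 6.24 FPKM in cKO (log2 fold change -1.04, SE 0.27, limma adjusted p = 0.399). Wnt3, a ligand known to promote neurogenesis in the dentate gyrus, was 2.16, 2.06 and 1.77 FPKM in Ctrl and 0.792, 0 and 0.811 FPKM in cKO (limma adjusted p = 0.590). For both genes the cKO units lay below all Ctrl units, as in 3 of the 17 genes, where 7.22% of all genes tested did. At an unadjusted p under 0.05, 2 of the 17 were lower and 1 higher, where 4.71% and 2.98% of all genes tested were. Neither gene passed the adjusted threshold. Wnt3 had a cKO mean of 0.535 FPKM and passed the limit for testing through Ctrl alone. Dll1, with a cKO mean of 0.703 FPKM, passed in the same way. S100b (79.8 ± 22.2 and 69.6 ± 6.59 FPKM) and Dkk3 (47.7 ± 1.05 and 50.8 ± 5.33 FPKM; SD, n = 3 each) had groups that overlapped.

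Genes of the subventricular zone lineage, which serves the olfactory bulb, were scarce: 0 of 7 reached a mean of 1 FPKM. The highest were Sp8 (0.341 ± 0.406 and 0.185 ± 0.0775 FPKM), Sp9 (0.315 ± 0.203 and 0.207 ± 0.0800 FPKM) and Dlx2 (0.237 ± 0.392 and 0.210 ± 0.0517 FPKM in Ctrl and cKO, SD, n = 3 each). The Ctrl level of Dlx2 came mostly from A2 (0.690 FPKM), the unit with the highest Mki67 and Top2a.

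The genes whose levels ran most like a tested gene over the 6 units were Notch2, Thrsp and Gm20026 for Hopx (Pearson r 0.995, 0.988 and 0.987). Plk2, Vps13b and Ppp1r10 came first for Nes (0.994, 0.992 and 0.990), and Gm13340, Gm56007 and Invs for Prom1 (0.988, 0.978 and 0.969). For Sox11 they were Gm45767, Kctd3 and Il1rap (0.997, 0.997 and 0.996), for Mki67 Cfap97d2, Itga3 and Gm9616 (0.999, 0.997 and 0.997), and for Top2a Pygo2, Tbc1d4 and Bet1 (0.999, 0.988 and 0.987). With 6 units such values are common, since 41 to 485 genes had an r over 0.9 with a single one of these genes, and they are given as a description. Mki67 and Top2a were not among the 3 genes most like each other.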
